A study of Mus musculus with 6 samples.

Results

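Nkx2-1, Lhx8, Gbx1, Gbx2 and Isl1 are homeodomain transcription factor genes of the medial ganglionic eminence (MGE) and the preoptic area, the ventral parts of the embryonic forebrain that lie below the cortex. These 5 genes were taken by symbol from the 45583 rows of the deposited table of counts per gene, of which 23501 rows had a count in any library. They were chosen by their measured difference between BPA and vehicle in these same libraries, so their levels and fold changes are given as a description, without a test. Of the 5, 4 passed the filter on low counts and are among the 13741 genes tested, and Gbx2 did not.

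RNA sequencing was performed on the brain cortex of 6 male fetuses at GD15.5 (gestational day), each giving 1 library. In 3 libraries the dam had received bisphenol A (BPA, a plastic monomer that can act on estrogen receptors) by subcutaneous injection at 50 µg/kg daily on GD10.5 to GD14.5, and in the other 3 she had received peanut oil as vehicle. All 6 fetuses were of the Cyp19-EGFP strain, which per the study's methods carries a bacterial artificial chromosome with the aromatase gene Cyp19a1 and a green fluorescent protein gene on an FVBN background, and all were labelled wild type and Sry-positive. The labels identify fetuses and not dams, so the spread between libraries may include shared litters, and the study's methods give the age as in the labels while its results section gives a later one.

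The MGE is patterned by sonic hedgehog, which induces Nkx2-1, and Nkx2-1 in turn activates the LIM homeodomain genes Lhx6 and Lhx8. MGE progenitors give rise to cortical interneurons, which switch Nkx2-1 off and keep Lhx6 on before they enter the cortex, and to neurons of the globus pallidus, striatum and basal forebrain, many of which keep Nkx2-1. Lhx8, Gbx1, Gbx2 and Isl1 are best known in this region for cholinergic neurons, and Isl1 also for projection neurons of the striatum.

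All 5 genes encode a homeodomain, the DNA-binding domain of this class, and lie on the minus strand of 5 different chromosomes. Over the 60 residues of the homeodomain, Gbx1 and Gbx2 were identical at 58, and Nkx2-1 matched either of them at 29. The LIM homeodomain proteins Lhx8 and Isl1 shared 26 residues, and Nkx2-1 and Lhx8 shared 15.

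Since the 5 genes were lower together in the BPA libraries, the DNA just upstream of their transcription starts was read for letters that they share. RefSeq windows (GRCm38.p6) from 250 bases before to 50 bases after the start were at hand for 4 of them, all but Gbx1. The upstream part is printed 5′ to 3′ for Nkx2-1 (chr12:56536909-56537158, minus strand), which had the largest difference in CPM, for Lhx8 (chr3:154330660-154330810, minus strand), where it holds most of the 162 bases between the GENCODE start and the next gene, and for Gbx2 (chr1:89931180-89931426, minus strand), which alone held any of the motifs searched. Each printed stretch is the part of the RefSeq window upstream of the GENCODE start, which for Lhx8 lies well upstream of the RefSeq start and leaves 151 bases. Capitals mark CACGTG, a form of the E-box.
Nkx2-1: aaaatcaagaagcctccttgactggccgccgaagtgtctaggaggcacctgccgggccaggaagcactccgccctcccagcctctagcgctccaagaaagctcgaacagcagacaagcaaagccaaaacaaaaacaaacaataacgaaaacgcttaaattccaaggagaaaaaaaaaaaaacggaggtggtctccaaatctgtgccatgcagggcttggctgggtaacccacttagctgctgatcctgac
Lhx8: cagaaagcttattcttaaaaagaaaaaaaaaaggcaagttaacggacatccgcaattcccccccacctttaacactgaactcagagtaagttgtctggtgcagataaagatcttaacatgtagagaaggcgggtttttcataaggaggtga
Gbx2: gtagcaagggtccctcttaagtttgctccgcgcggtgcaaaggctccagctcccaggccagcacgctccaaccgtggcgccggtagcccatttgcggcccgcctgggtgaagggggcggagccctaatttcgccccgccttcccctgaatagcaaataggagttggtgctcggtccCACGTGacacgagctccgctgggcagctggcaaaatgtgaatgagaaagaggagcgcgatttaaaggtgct
Both strands of each window were searched for CAAGTG (the NK2 class core), TAATTA (bound by LIM and other homeodomains) and GACCACCCA (bound by GLI factors). The search also covered CACGTG (a form of the E-box), TATAAA (the TATA box) and the palindromic estrogen response element. Among 32851 RefSeq windows of the mouse, 13.6% held CAAGTG, 5.29% TAATTA, 0.253% GACCACCCA, 7.15% CACGTG, 13.6% TATAAA and 0.0700% the estrogen response element. Of the 4 windows of these genes, that of Gbx2 held CACGTG at position -74 and CAAGTG at position 15, counted from the RefSeq start, and the windows of Nkx2-1, Lhx8 and Isl1 held none of the 6. None of the 6 was therefore shared by any pair of these windows. Other forms of the E-box were not searched for.

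Levels are given as CPM, counts scaled to a library's total after TMM (trimmed mean of M-values) scaling, and intervals are exact Poisson intervals at 95%, which cover counting error only. Total counts ran from 5030652 to 7180835 in the vehicle libraries and from 3444601 in BPA replicate 3 to 6426857 in BPA replicate 1, so that 3 counts, the floor used here for detection, corresponded to between 0.418 and 0.871 CPM. The labelled tissue was visible in its markers: all 16 genes of a dorsal pallium list were tested and summed to between 4440 and 5195 CPM in vehicle and between 4694 and 5168 CPM in BPA. Vehicle replicate 2 and BPA replicate 2 stood apart by Ttr, a transcript of the choroid plexus, at 195 and 308 CPM against 2.21 to 11.9 CPM in the other 4 libraries.

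Nkx2-1 (ENSMUSG00000001496.15, chromosome 12, 56531958 to 56536908) is the gene that specifies MGE and preoptic identity. It had 291, 277 and 132 counts in vehicle replicates 1 to 3, or 42.8, 39.0 and 26.0 CPM. In BPA replicates 1 to 3 it had 82, 129 and 36 counts, or 12.9, 21.0 and 10.503 CPM. The groups did not overlap, and the gap from the lowest vehicle library to the highest BPA library was 5.07 CPM. Vehicle replicate 3 and BPA replicate 2 were the closest pair, and their counting intervals, 21.8 to 30.9 CPM and 17.5 to 24.9 CPM, overlapped. The mean was 35.9 CPM ± 8.79 (SD, n = 3) with vehicle and 14.8 CPM ± 5.48 (SD, n = 3) in BPA, that is 58.9% lower in BPA. The log2 fold change, -1.25 (SE 0.220), ranked 5 from the lowest among the genes tested. The SD within groups was larger than the 2.37 and 1.68 CPM that counting error alone would give.

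**Figure D1:**
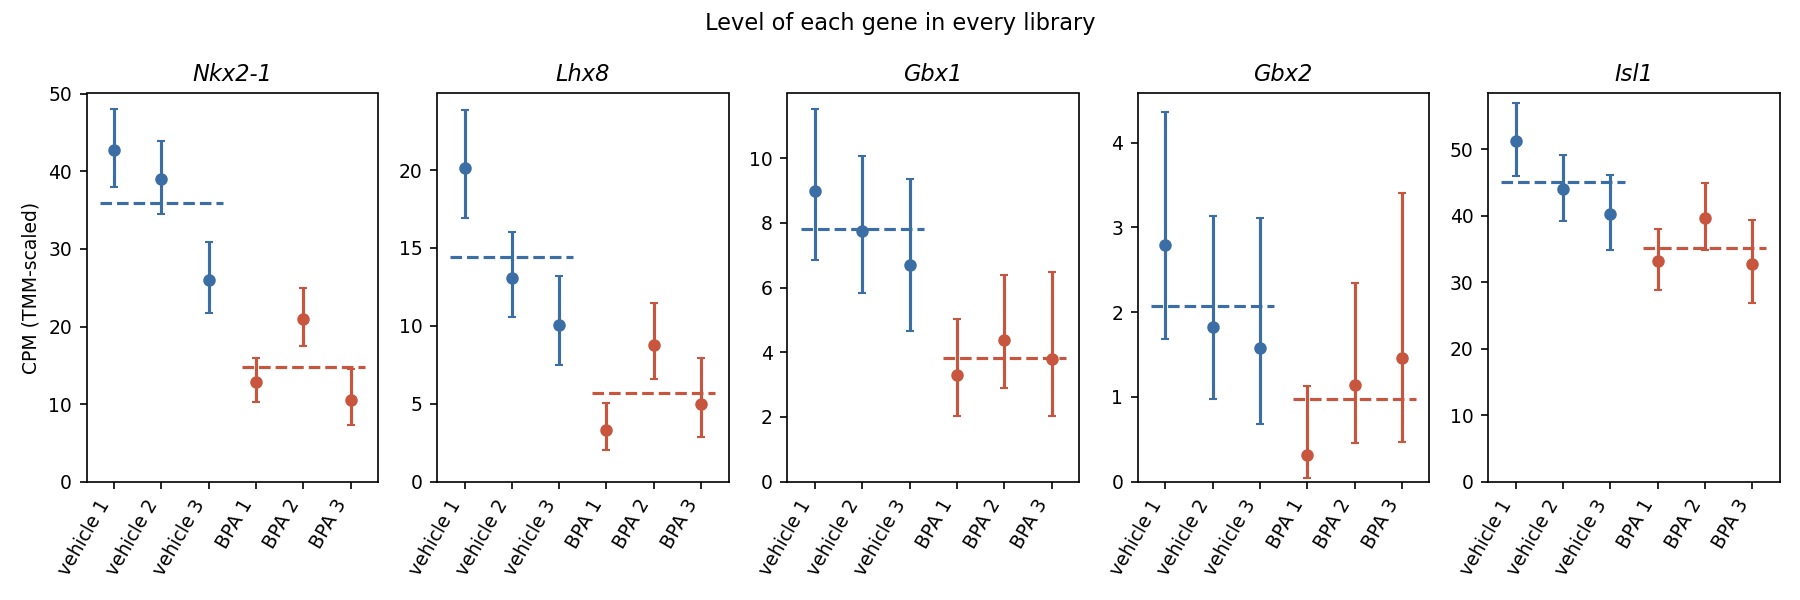
CPM of the 5 genes (1 panel each, y axis from 0) in each of the 3 vehicle (blue) and 3 BPA (red) libraries, with 95% Poisson intervals of the counts as bars and group means as dashed lines. For each gene the lowest vehicle library lay above the highest BPA library, by 5.07 CPM for Nkx2-1 and by 0.119 CPM for Gbx2.

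Lhx8 (ENSMUSG00000096225.7, chromosome 3, 154306294 to 154330659) acts downstream of Nkx2-1 and is needed for forebrain cholinergic neurons. Its 137, 93 and 51 counts in vehicle replicates 1 to 3 corresponded to 20.1, 13.1 and 10.1 CPM. The 21, 54 and 17 counts in BPA replicates 1 to 3 corresponded to 3.30, 8.78 and 4.96 CPM. Vehicle replicate 1 and BPA replicate 1 were the extremes, and vehicle replicate 3 and BPA replicate 2 came within 1.28 CPM of each other without overlap. The fitted log2 fold change of -1.34 (SE 0.314) became -1.96 without the high-Ttr replicates, vehicle 2 and BPA 2, and -1.01 without BPA replicate 1. Lhx8 ranked 4 from the lowest fold change among the genes tested, and Nkx2-1 followed.

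Gbx1 (ENSMUSG00000067724.5, chromosome 5, 24502757 to 24527202) is expressed in the developing basal forebrain and spinal cord. Its level was 8.97, 7.74 and 6.70 CPM in vehicle replicates 1 to 3, from 61, 55 and 34 counts, and 3.30, 4.39 and 3.79 CPM in BPA replicates 1 to 3, from 21, 27 and 13 counts. Its libraries varied within a group by about as much as counting alone gives: the SD of 1.13 CPM in vehicle was close to the 1.115 CPM of counting error, and the SD of 0.546 CPM in BPA was below the 0.883 CPM of counting error. The lowest vehicle library was 1.53 times the highest BPA library, the widest such ratio among the 5 genes. Its fold change on the log2 scale was -1.03 (SE 0.245), rank 10 among the genes tested.

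Gbx2 (ENSMUSG00000034486.8, chromosome 1, 89927956 to 89931179), known for the midbrain-hindbrain boundary and the thalamus and also expressed in MGE-derived neurons, was near the floor. It had 19, 13 and 8 counts in vehicle and 2, 7 and 5 counts in BPA replicates 1 to 3. The corresponding levels were 2.79, 1.83 and 1.58 CPM in vehicle and 0.314, 1.14 and 1.46 CPM in BPA. The groups were separated by 0.119 CPM, less than the counting SD of 0.571 CPM in vehicle and 0.469 CPM in BPA, so at this depth the separation was not larger than counting error. In a fit without the filter on low counts the log2 fold change was -1.22 (SE 0.491), and it was -0.73 without BPA replicate 1.

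Isl1 (ENSMUSG00000042258.13, chromosome 13, 116298281 to 116309689) had the most counts of the 5 genes and the smallest relative difference. It stood at 51.2, 43.9 and 40.2 CPM in vehicle replicates 1 to 3, from 348, 312 and 204 counts. In BPA replicates 1 to 3 it stood at 33.1, 39.7 and 32.7 CPM, from 211, 244 and 112 counts. Vehicle replicate 3 and BPA replicate 2 differed by 0.576 CPM, far less than the width of either counting interval, so the 2 groups were separated but adjoining. The mean was 22.1% lower in BPA, with -0.36 (SE 0.132) as log2 fold change and rank 492 among the genes tested.

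All 5 genes were thus lower in each BPA library than in each vehicle library, where 3.56% of all genes tested showed such a separation toward lower values and 3.19% toward higher values. Because this contrast chose the 5 genes, nothing is read from that count. Their median log2 fold change was -1.22, beside 0.0016 over all genes tested. The separation of each of the 5 genes held with library size alone, relative log expression or upper quartile scaling. It also held with any 1 library left out, which was bound to follow, apart from small shifts in scaling. As the tissue was bulk RNA, fewer cells that express these genes and less RNA per cell cannot be told apart.

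Levels of different genes can be compared only per length of transcript. Per kilobase of exon, Nkx2-1 had 12.65 ± 3.09 CPM (SD, n = 3) with vehicle and Isl1 had 11.4 ± 1.41, which did not differ beyond their spread. Lhx8 followed with 5.70 ± 2.05, then Gbx1 with 2.25 ± 0.327 and Gbx2 with 0.950 ± 0.295 CPM per kilobase. In the BPA libraries Isl1 was first, with 8.88 ± 0.986 CPM per kilobase, and Nkx2-1 was second with 5.20 ± 1.93. Lhx8 (2.24 ± 1.11) and Gbx1 (1.10 ± 0.157) came next and Gbx2 (0.446 ± 0.271) was last. Apart from Nkx2-1 and Isl1 in vehicle, neighbors in this order did not overlap between their libraries in either group. Without division by length Isl1 came before Nkx2-1 in both groups.

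The 5 genes also varied together among replicates of the same treatment. On log2 CPM centred on each gene's mean, their average was 0.81, 0.48 and 0.19 in vehicle replicates 1 to 3 and -0.87, -0.11 and -0.50 in BPA replicates 1 to 3. Vehicle replicate 1 was the highest library for each of the 5 genes, and vehicle replicate 3 was the lowest vehicle library for each. BPA replicate 2 was the highest BPA library for 4 genes, with Gbx2, at 7 and 5 counts in BPA replicates 2 and 3, as the exception. After the group means were removed, Pearson's r over the 6 libraries was 0.80 between Nkx2-1 and Lhx8, 0.98 between Lhx8 and Gbx1, 0.91 between Nkx2-1 and Isl1 and 0.25 between Nkx2-1 and Gbx2. These values describe 6 points that share the library's depth and dissection, with 4 degrees of freedom left after the group means.

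Ratios of counts within a library remove the scaling and show which genes kept step. The 5 genes were chosen by their difference between the groups, so a lower ratio to a gene that differed less restates that choice. Lhx8 had 47.1, 33.6 and 38.6 counts per 100 counts of Nkx2-1 in vehicle replicates 1 to 3 and 25.6, 41.9 and 47.2 in BPA replicates 1 to 3. The groups overlapped, and so they did for Gbx1 per 100 Nkx2-1, at 22.2 ± 3.14 (SD, n = 3) with vehicle and 27.6 ± 7.77 in BPA. Isl1 did not keep step with Nkx2-1: there were 83.6, 88.8 and 64.7 Nkx2-1 counts per 100 counts of Isl1 in vehicle and 38.9, 52.9 and 32.1 in BPA. Against Lhx6, which MGE-derived interneurons keep as they enter the cortex, Nkx2-1 had 27.8, 25.02 and 18.6 counts per 100 in vehicle and 9.99, 16.8 and 7.73 in BPA, and these groups did not overlap. The same held for Lhx8 per 100 Lhx6, at 9.57 ± 3.12 (SD, n = 3) and 4.41 ± 2.32, and for Nkx2-1 per 100 Dlx2, a gene of all ganglionic eminences, at 22.8 ± 5.30 and 11.3 ± 2.01. Isl1 per 100 Dlx2 overlapped, at 28.9 ± 5.39 in vehicle and 28.0 ± 5.06 in BPA.

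**Figure D2:**
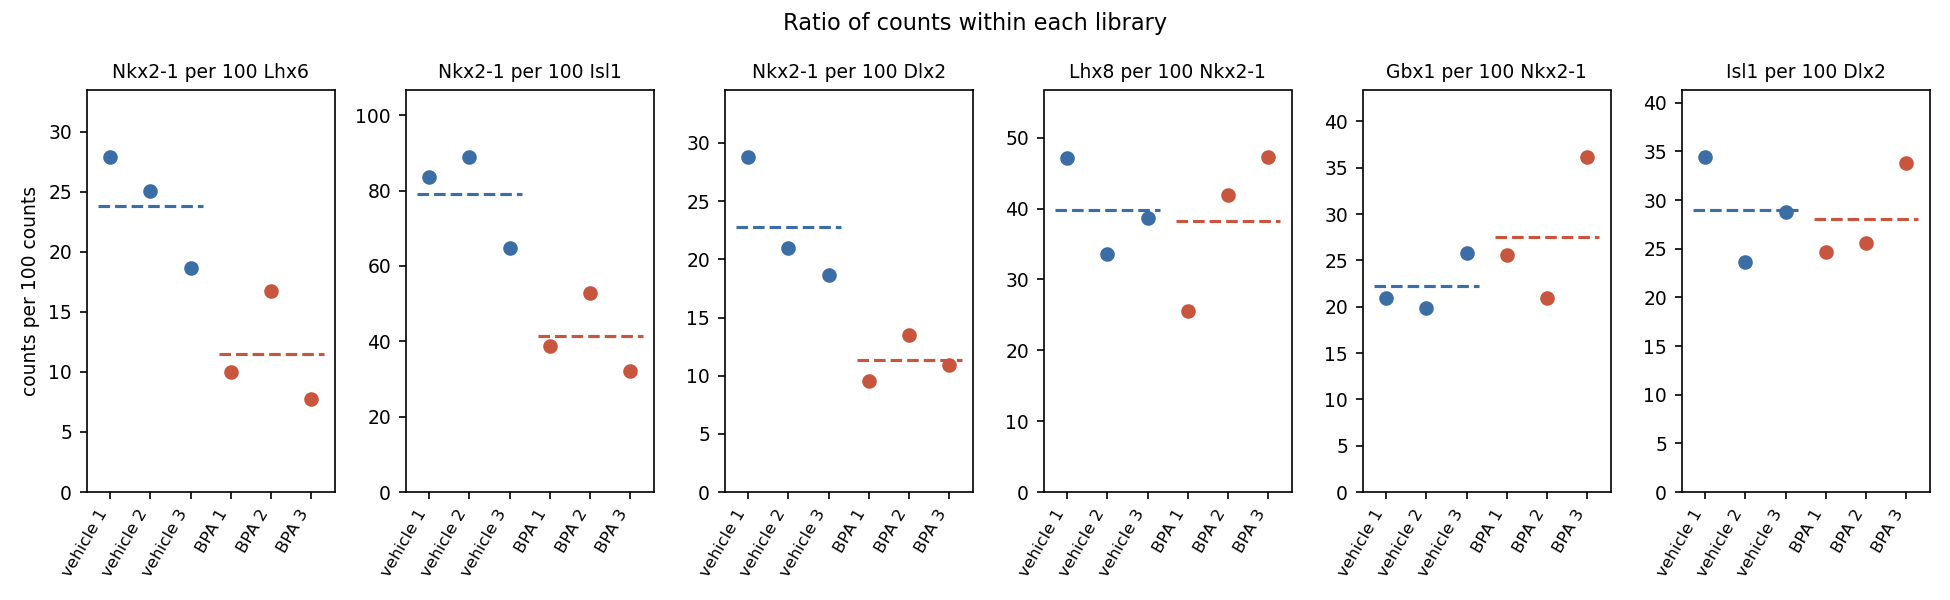
Counts of one gene per 100 counts of another in the same library (y axis from 0) for the 3 vehicle (blue) and 3 BPA (red) libraries, with group means as dashed lines. Nkx2-1 per 100 Lhx6, per 100 Isl1 and per 100 Dlx2 was lower in each BPA library than in each vehicle library. Lhx8 and Gbx1 per 100 Nkx2-1 and Isl1 per 100 Dlx2 overlapped. Nkx2-1 was chosen by its difference between the groups, so its separations restate that choice.

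Genes next to these 5 were examined for reads that could be shared and for changes of a whole locus. AI606473, a noncoding transcript on the opposite strand whose start lies 162 bases from that of Lhx8, had 7 to 39 counts and averaged 3.60 CPM in vehicle and 2.22 CPM in BPA. The difference of AI606473 was -0.85 on the log2 scale, with an unadjusted p of 0.0771 by the quasi-likelihood fit of edgeR. On the other side of Lhx8, Slc44a5, a choline transporter-like gene, had a log2 fold change of 0.11. Agap3 and Agap1, the neighbors of Gbx1 and Gbx2, had log2 fold changes of -0.08 and -0.00424, and Asb10 and Asb18 on their other sides had at most 2 and 5 counts. The antisense transcript Gm26973 overlaps Nkx2-1 and D130058E05Rik overlaps Gbx2 on the opposite strand, and each had 0 to 2 counts. D130058E05Rik shares 42.2% of the 50-base words of Gbx2, and since strand use in the counting is not stated, the few counts of Gbx2 are uncertain for this reason too. Lhx8, Gbx1 and Isl1 share no such word with another gene, and Nkx2-1 shares 1.34% on the same strand and 1.16% on the opposite strand.

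The signals and regulators that act with Nkx2-1 in the ventral forebrain formed a list of 20 genes. Of these, 9 were tested and 0 passed the threshold of the study's methods, an adjusted p of 0.1 by edgeR's quasi-likelihood fit, as did 0% of all genes tested. With the unadjusted p under 0.05, 4 were lower and 0 higher in BPA, against 1.18% lower and 1.02% higher over all genes tested. The 4 became 2 without vehicle replicate 1 or BPA replicate 3, and 1 without BPA replicate 1. The list's median log2 fold change was -0.29, with 7 of 9 genes below 0, against 49.5% of all genes tested. That median was -0.08 without vehicle replicate 1 and -0.10 without BPA replicate 1 or 3. For 3 genes the groups did not overlap, all lower in BPA, against 3.56% of all genes tested. Six3, a forebrain homeobox gene, was at 36.5, 35.3 and 37.9 CPM in vehicle and 28.3, 28.6 and 24.5 CPM in BPA, with an unadjusted p of 0.0040 in edgeR. Olig2, a gene of ventral progenitors, averaged 18.1 CPM ± 1.79 (SD, n = 3) with vehicle and 13.3 CPM ± 1.53 in BPA, with an unadjusted p of 0.0173 in edgeR. Olig1 had a log2 fold change of -0.45 and an unadjusted p of 0.0303 in edgeR.

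Shh itself had 4 to 12 counts and was not tested. Its targets Ptch1 and Gli1 had log2 fold changes of -0.05 and 0.0040, with overlapping groups. Defining genes of the MGE ventricular zone and preoptic area were at or under 3 counts in every library: Nkx6-2 had at most 2, Hmx2 1, Hmx3 3, Dbx1 2 and Fgf8 2 counts, and Six6 and Nkx2-4 had 0. A difference in them was not detectable at this depth, at which 3 counts in the shallowest library correspond to 0.871 CPM. Otx2, also a choroid plexus gene, ranged from 2.56 to 7.65 CPM in vehicle and from 2.04 to 8.78 CPM in BPA.

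The markers of cortical interneurons derived from the MGE were a list of 15 genes, all tested, of which 0 passed the adjusted threshold in edgeR. Lhx6 averaged 150 CPM ± 8.81 (SD, n = 3) with vehicle and 130 CPM ± 5.49 in BPA, did not overlap, and had a log2 fold change of -0.21 at an unadjusted p of 0.0492 in edgeR. In edgeR 2 of the 15 genes had an unadjusted p under 0.05, both lower in BPA, and 0 of the 15 did in DESeq2 or edgeR's exact test. Sst, the somatostatin gene, averaged 78.4 CPM ± 12.4 (SD, n = 3) and 70.8 CPM ± 8.16, Sox6 123 CPM ± 14.52 and 125 CPM ± 11.3, and Satb1 was higher in each BPA library than in each vehicle library with a log2 fold change of 0.11. The list's median was -0.03, with 8 genes below 0 and 7 above, and it turned to 0.03 without vehicle replicate 1 and to 0.07 without BPA replicate 2. Its summed level ran from 1691 to 1715 CPM in vehicle and from 1613 to 1725 CPM in BPA. Lhx6 counts per 100 Dlx2 counts overlapped as well, at 95.7 ± 10.4 (SD, n = 3) and 106 ± 31.2.

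Basal forebrain cholinergic markers, the mature products of the lineage that Lhx8 and Gbx1 serve, were mostly too low to test: 4 of 10 were tested. Chat, the acetylcholine-synthesizing enzyme, had 0 to 8 counts, with 8 in vehicle replicate 1. The vesicular acetylcholine transporter gene Slc18a3 had 2 to 16 counts and averaged 1.54 CPM ± 0.722 (SD, n = 3) with vehicle and 0.570 CPM ± 0.250 in BPA. Its groups did not overlap. Ache, Ngfr and Tacr3 had log2 fold changes of -0.10, 0.11 and 0.34, each with overlapping groups. Zic4 had 44.1 CPM in vehicle replicate 1 and 3.79 to 12.03 CPM in the other 5 libraries, with a log2 fold change of -1.35 at an unadjusted p of 0.0406 in edgeR. The median of the 4 was 0.0082. Without a filter on low counts all 10 were fitted, with a median of -0.63, 7 below 0, 3 lower at an unadjusted p under 0.05 and 1 past the adjusted threshold in edgeR. Over all 23501 genes of that fit, 620 had an unadjusted p under 0.05 in either direction and 19 passed the adjusted threshold.

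Markers of GABAergic neurons in general and of the neighboring ganglionic eminence were described next. The pan-GABAergic list had 11 of 11 genes tested, all with a log2 fold change below 0, against 49.5% of all genes tested, and a median of -0.29, which was -0.15 without BPA replicate 3. Its members Dlx1 (-0.21), the vesicular GABA transporter gene Slc32a1 (-0.33) and Sp8 (-0.31) had unadjusted p of 0.0389, 0.0253 and 0.0466 in edgeR. The list had 1 gene at that level, not 3, when BPA replicate 1 was left out, and likewise 1 when vehicle replicate 1 or 2 was. For 7 of the 11 the groups did not overlap, against 3.56% of all genes tested that were lower without overlap, 0 passed the adjusted threshold, and the summed level was 986 to 1096 CPM in vehicle and 860 to 950 CPM in BPA. The list of the lateral ganglionic eminence and striatum had 15 of 16 genes below 0, with a median of -0.25, 5 genes that did not overlap, against the same 3.56%, and 0 past the adjusted threshold. Besides Six3, its members Ebf1 (-0.25), Foxp2 (-0.27), Rxrg (-0.43) and Adora2a (-0.38) had unadjusted p of 0.0478, 0.0325, 0.0232 and 0.0410 in edgeR. The list's count of 5 was 1 without BPA replicate 1, 2 without vehicle replicate 1, and 3 without vehicle replicate 3 or with DESeq2 or limma-voom. Its summed level was 1152 to 1246 CPM in vehicle and 1035 to 1060 CPM in BPA. Isl1, which serves this lineage as well, had 46.7 ± 9.23 (SD, n = 3) counts per 100 counts of Ebf1 in vehicle and 42.5 ± 3.48 in BPA, with overlap. Both summed levels were, like the 5 genes, lower in each BPA library than in each vehicle library, and their part in the difference was not tested.

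**Figure D3:**
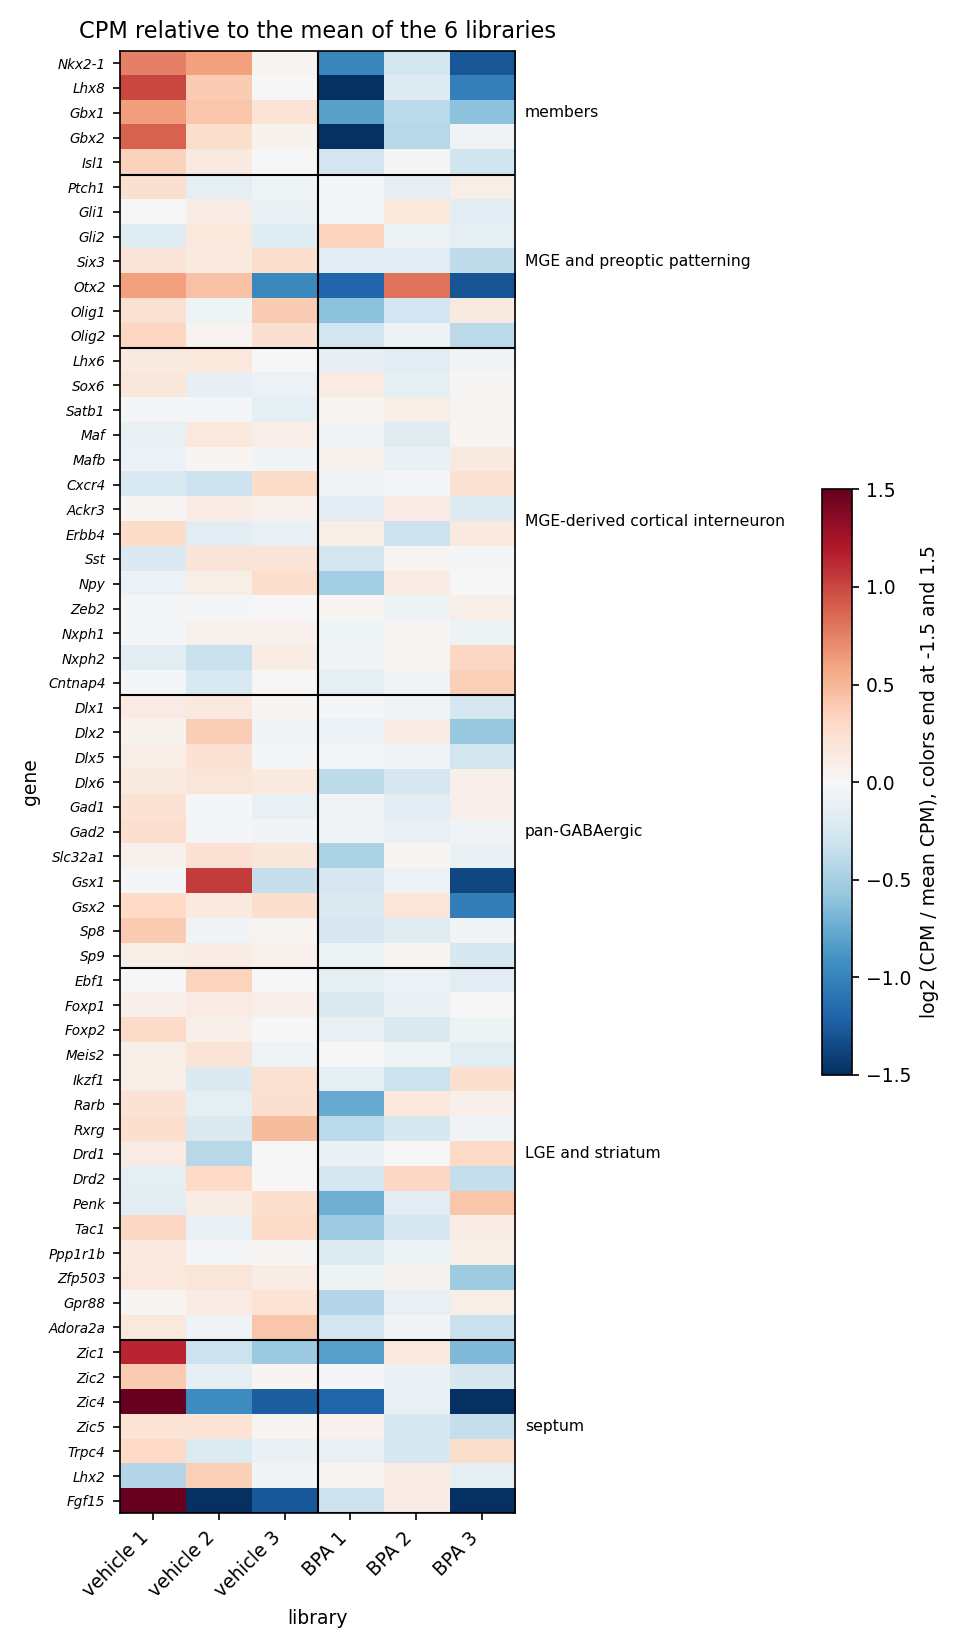
Log2 of CPM over the mean CPM of the 6 libraries (color, which ends at -1.5 and 1.5) for the 5 genes and the tested genes of 5 lists, in the 3 vehicle and 3 BPA libraries. A gene on several lists is drawn once, and a few list genes are left out. The 5 genes are high in vehicle replicate 1 and low in BPA replicate 1, and the septum genes Zic1, Zic4 and Fgf15 are also highest in vehicle replicate 1.

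Markers of other regions that a dissection of cortex could take along were set beside these values. Some septum genes were highest in vehicle replicate 1: Zic1 was at 164 CPM there and at 42.2 to 82.2 CPM in the other 5 libraries, and Fgf15 at 10.6 against 0.584 to 3.58 CPM. Lhx2, the most abundant gene of the list, was lowest in that library, at 220 CPM against 269 to 381 CPM, and Zic5 was at 7.80 and 7.74 CPM in vehicle replicates 1 and 2. Over all 8 septum genes tested, 7 were below 0 with a median log2 fold change of -0.49, 0 did not overlap, and 2, Zic4 among them, had an unadjusted p under 0.05 in edgeR. Without vehicle replicate 1 the septum median was 0.0090 and 0 genes had an unadjusted p under 0.05. The septum list summed to 409 to 534 CPM in vehicle and 377 to 485 CPM in BPA, and no gene of it was at or under the floor. In the fit without a filter, 3 septum genes passed the adjusted threshold, against 19 of all 23501 genes fitted.

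The remaining regions showed smaller differences. Thalamus and epithalamus genes, a region that expresses Gbx2, had 8 of 16 tested, 0 with an unadjusted p under 0.05 in edgeR, a median of 0.03 and summed levels of 192 to 232 CPM in vehicle and 207 to 217 CPM in BPA. Shox2, Irx2 and Irx5 were at or under 3 counts. Hypothalamus genes had 6 of 16 tested, 0 with an unadjusted p under 0.05 and a median of -0.000112, and Rax, Nr5a1, Six6, Nkx2-4, Hmx2, Hmx3 and Sox14 were at or under 3 counts. They summed to 426 to 516 CPM in vehicle and 430 to 466 CPM in BPA. Otp, a hypothalamus and amygdala gene, was at 4.15 CPM ± 0.335 (SD, n = 3) and 2.88 CPM ± 1.02 without overlap. Sensory ganglia genes, which also use Isl1, had 2 of 12 tested, 0 with an unadjusted p under 0.05 in edgeR, a median of 0.04 and 6 at or under 3 counts, Pou4f2 and Pou4f3 among them at 0, and summed to 17.0 to 24.9 CPM in vehicle and 15.46 to 24.3 CPM in BPA. The globus pallidus and amygdala list had 9 of 11 genes tested, 7 below 0, 1 with an unadjusted p under 0.05 and a median of -0.06, and the caudal eminence interneuron list had 6 of 7 tested, 0 with an unadjusted p under 0.05 and a median of -0.02.

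Genes of the dorsal pallium, the labelled tissue, had a median log2 fold change of 0.08, with 3 of 16 below 0 and 0 with an unadjusted p under 0.05 in edgeR. Without vehicle replicate 1 the median turned to -0.04, with 10 of 16 below 0. Neurod6, Bcl11b and Tbr1, its most abundant members, had values of 0.10, -0.11 and 0.08. Choroid plexus genes had 4 of 8 tested, 0 with an unadjusted p under 0.05 in edgeR and a median of 0.37. That median was 1.67 without vehicle replicate 2 and turned to -1.43 without BPA replicate 2. At an unadjusted p under 0.05 in edgeR, 2 were higher in the former setting, where 708 of all genes passed in either direction. In the latter 3 were lower, where 563 of all genes passed. The choroid plexus genes summed to 14.001 to 226 CPM in vehicle and 15.8 to 357 CPM in BPA. The sum was high in BPA replicate 2, the BPA library with the highest Nkx2-1, and in vehicle replicate 2, which was between the other vehicle libraries for each of the 5 genes. Blood genes had 7 of 10 tested, a median of -0.26 and an unadjusted p of 0.0452 in edgeR for Hba-a1, and summed to 286 to 599 CPM and 334 to 416 CPM. The part of these tissues in the difference was not tested.

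**Figure D4:**
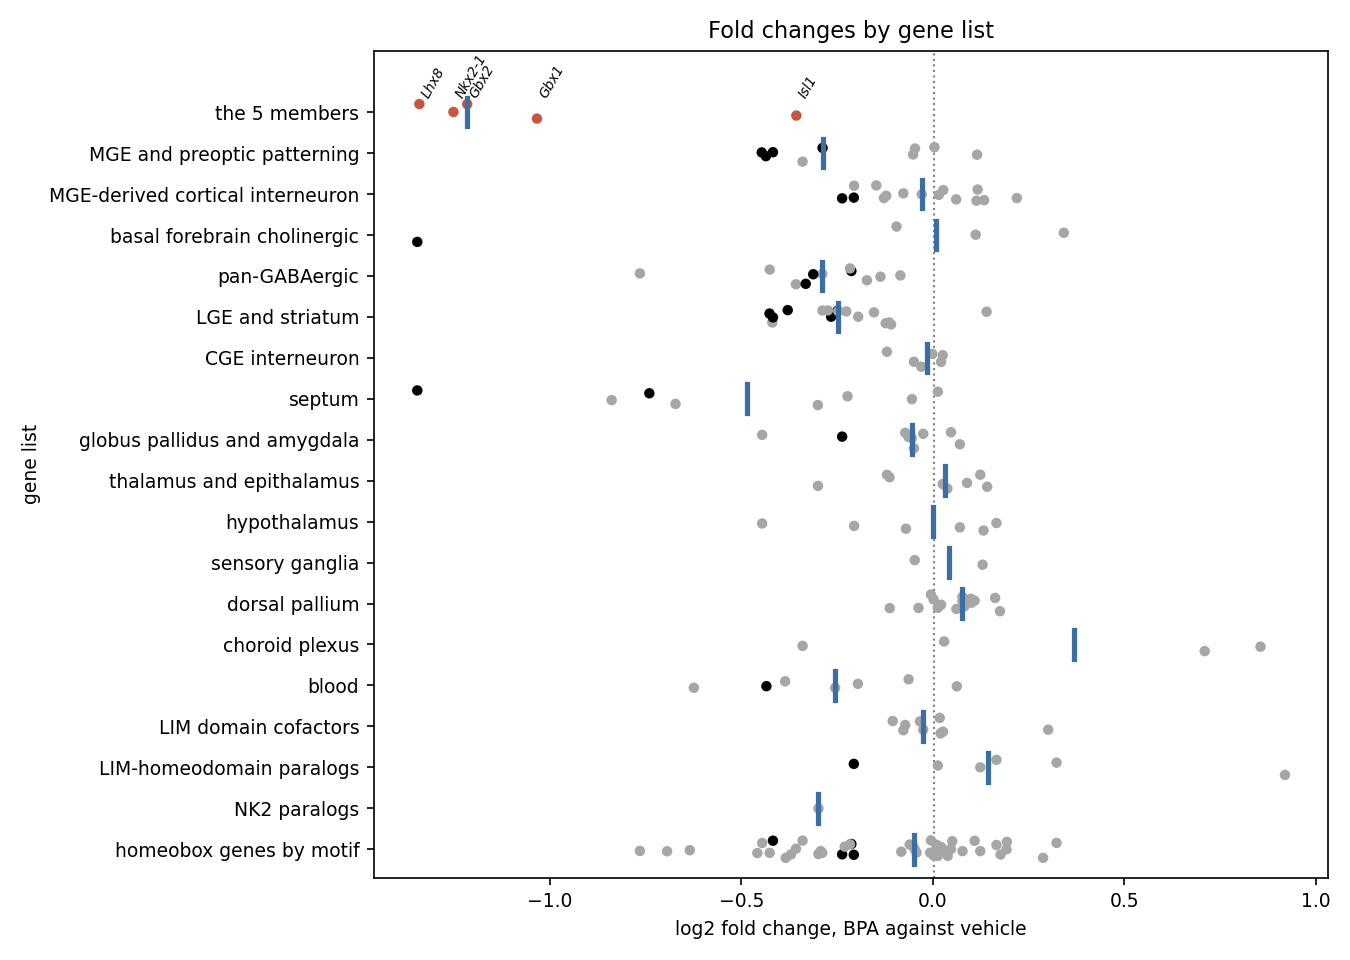
Log2 fold change of BPA against vehicle (x axis) for the 5 genes (red) and for the tested genes of each list, in black where the unadjusted p in edgeR was under 0.05 and in grey otherwise, with each list's median as a blue bar and the median of all genes tested as a dotted line. The 5 genes had a median of -1.22, the septum list -0.49, the pan-GABAergic list -0.29 and the dorsal pallium list 0.08.

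Relatives of the 5 genes were examined last. Of 10 LIM homeodomain paralogs, 6 were tested, 5 of them above 0 with a median of 0.14 that turned to -0.07 without vehicle replicate 1, and Lhx6 was below 0. Lmx1a had a log2 fold change of 0.92 at an unadjusted p of 0.0837 in edgeR, and Lhx2 was at 296 CPM ± 80.7 (SD, n = 3) and 298 CPM ± 27.6. Isl2, Lhx3, Lhx4 and Lmx1b were at or under 3 counts. Of 8 NK2 and NK6 paralogs, 6 were at or under 3 counts, Nkx2-2 had 0 to 7 counts, and Nkx2-3 was tested with a log2 fold change of -0.30. The 9 LIM domain cofactors, among them Ldb1, which bridges LIM homeodomain proteins, had 0 genes with an unadjusted p under 0.05 in edgeR and a median of -0.03. A search of translated transcripts used a homeodomain pattern that misses some homeobox genes, Lmx1a and Lmx1b among them. It found 188 genes with these 5 included. Of the other 183, 128 were at or under 3 counts and 44 were tested, with 0 past the adjusted threshold in edgeR, 4 (Dlx1, Lhx6 and Six3 among them) lower and 0 higher at an unadjusted p under 0.05, and a median of -0.05. Over all these lists 0 genes passed the adjusted threshold with DESeq2, limma-voom or edgeR's exact test. Without vehicle replicate 2 and BPA replicate 2, the libraries with high Ttr, the septum list had 3 genes past that threshold in edgeR and a median of -0.81. In the same setting 1 gene each of the basal forebrain cholinergic, choroid plexus and blood lists passed it, against 15 over all genes. Zic4 is on both the cholinergic and the septum list, so these counts can hold the same gene. The list of signals and regulators that act with Nkx2-1 had 5 genes lower and 1 higher at an unadjusted p under 0.05 in that setting.

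The genes whose profile over the 6 libraries was most like the mean centred profile of the 5 were Fxyd7 (Pearson's r = 0.989), Ptdss2 (0.989), Gprin1 (0.979), Larp6 (0.978) and Abat (0.976), among 13737 genes. Fxyd7, a regulator of the sodium pump, was at 11.6 CPM ± 1.11 (SD, n = 3) with vehicle and 7.19 CPM ± 1.48 in BPA, and Abat, which degrades GABA, at 115 CPM ± 5.97 and 93.4 CPM ± 9.77. With group means removed, the most similar were Bag1 (r = 0.998), Rhpn2 (0.997), Shf (0.997), Mios (0.995) and Zcchc12 (0.993), all different from the first 5. With 6 points that share depth and dissection, such values are a description.

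**Figure D5:**
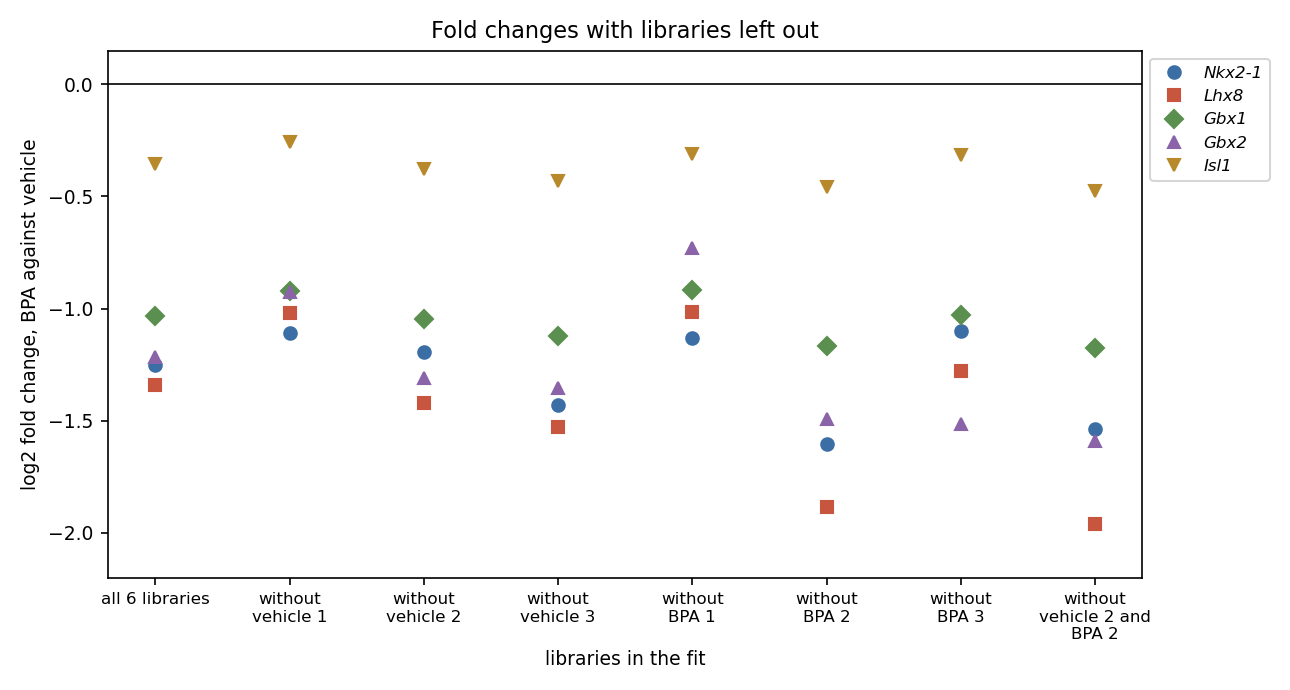
Log2 fold change of BPA against vehicle (y axis) for each of the 5 genes in the fit of all 6 libraries and in fits without the library or libraries named on the x axis. All values lay below 0, from -1.96 for Lhx8 without vehicle 2 and BPA 2 to -0.26 for Isl1 without vehicle 1, and Gbx2 ranged from -1.59 to -0.73.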

How the data were processed

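The data were the deposited counts of reads per gene, which the authors made, per the study's methods and the submitters' processing notes, from strand-specific libraries of total cortical RNA read from a single end over 50 bases. Reads were mapped to GRCm38 by TopHat 2.0.14 and summarized on GENCODE gene models with featureCounts and StringTie 1.2.4. How the counting treated strand and multi-mapped reads is not given in the sources used here. Groups came from the treatment labels, with replicates numbered in accession order, so the numbers pair no samples.

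Counts were analysed in R 4.3.3 with edgeR 4.0.16: filterByExpr (minimum count 10, minimum total 15) kept 13741 genes that held 99.7% of the counts, and TMM set the library scaling. A two-sided quasi-likelihood test without a covariate compared BPA against vehicle, and p-values were adjusted after Benjamini and Hochberg, with a threshold of 0.1. The biological coefficient of variation was 0.106, and the procedure was tested on simulated data. P-values measure the spread between these fetuses. The fold change of Gbx2 came from the same fit without the filter. Centred log2 CPM used a prior count of 2.

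The 5 genes and all gene lists were chosen with earlier results of these data known. The text names, in each list, the genes with an unadjusted p under 0.05, otherwise the most abundant, and defining genes at or under 3 counts, as well as nearest and overlapping genes and the 5 genes of at least 1 CPM closest to the mean profile by each measure. Slc18a3, Satb1, Otp, Lmx1a, Zic1, Fgf15 and a few others named for their role or separation were chosen after their values were seen. Some list genes are counted in the lists but not reported here. Coordinates and exon lengths are from GENCODE M21 (GRCm38). Homeodomains were found in translated GENCODE transcripts with a pattern that was widened after the first one missed the NK2 class, and no residues are printed. Alternatives were DESeq2 1.42.0, limma-voom (limma 3.58.1), edgeR's exact test, other scalings, filters, and each library left out. Leaving out both high-Ttr libraries was added after seeing the data.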

Additional observations from a re-analysis of the deposited data

How the results depend on the processing

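The number of genes past an adjusted p of 0.1 was 0 in the main analysis and with limma-voom, 3 with DESeq2, 2 with edgeR's exact test and 19 without a filter on low counts, and ranged from 0 to 15 with libraries left out. It was 1 without vehicle replicate 3 or without BPA replicate 2 and 15 without both vehicle replicate 2 and BPA replicate 2. The 302 genes at an unadjusted p under 0.05 became 126 with DESeq2, 620 without a filter, and 194 to 954 with libraries left out, with 194 without vehicle replicate 3 or BPA replicate 1, 563 without BPA replicate 2, 708 without vehicle replicate 2 and 954 without both replicates 2. The fit without a filter held more genes, and the cause of these shifts was not tested. The log2 fold change of Lhx8 ranged from -1.96, without vehicle replicate 2 and BPA replicate 2, to -1.01 with libraries left out. Those of Nkx2-1 (-1.61 to -1.10), Gbx1 (-1.17 to -0.92), Gbx2 (-1.59 to -0.73) and Isl1 (-0.47 to -0.26) and the median of the 5 kept their sign under all alternatives run. With other tools, scalings and filters Nkx2-1 stayed between -1.28 and -1.24. All 5 genes kept groups that did not overlap under every scaling. They also did with libraries left out, which was bound to follow, apart from small shifts in scaling. Depth limits Gbx2, with 2 to 19 counts, and Shh, with 4 to 12. No paired analysis was run, because the labels carry sample numbers but do not say whether these mark pairs.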
